A study of Mus musculus with 8 samples.

Results

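The genes described here code for chromatin modifiers and Polycomb proteins, 57 of the 22367 protein-coding genes of the mouse annotation GENCODE vM1 (mm9 build). They were chosen by name and function, with earlier results of these data known. They comprise 4 genes of Polycomb repressive complex PRC2, 8 of the complex PRC1, 9 histone deacetylases, 3 histone acetyltransferases and 9 histone methyltransferases. The others are 7 histone demethylases, 6 genes that write or remove DNA methylation, 9 chromatin remodellers and 2 co-repressor scaffolds. All 57 names were found in the annotation.

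Huntingtin (HTT) was precipitated with bound chromatin (ChIP-seq) from the cortex of male mice aged 4 months, and a peak is a stretch where more ChIP reads lay than the input control predicted. The mice were Htt+/+ (wild type) or HttQ111/+, a knock-in in which 1 Htt copy carries a human HTT exon 1 with a lengthened CAG tract. In each genotype 1 group received a pan-huntingtin antisense oligonucleotide (ASO, 500 µg) into a cerebral ventricle and its cortex on the injected side was taken 4 weeks later, and the other group was left untreated, with no control oligonucleotide. The study's methods give 4 months as the age at injection, so treated cortex was taken 4 weeks after that age. The 8 samples were 4 ChIP libraries, each with its own peak list, and 4 inputs, which the authors merged into 1 control. Each group was thus 1 library from pooled mice, and differences between groups have no replicate error to be judged by. The labels give 3 mice a library and the study's methods give 2 cortices, so the pool size is uncertain. Bulk cortex mixes neurons, glia and vascular cells, and a peak cannot be assigned to any of them. The peak lists hold no measure of the HTT protein, and the extent of its knockdown was not analysed here.

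Polycomb proteins keep developmental genes silent. PRC2 methylates lysine 27 of histone H3 through Ezh1 or Ezh2, and PRC1 compacts chromatin and ubiquitinates histone H2A through Ring1 or Rnf2. Deacetylases and acetyltransferases remove and add acetyl groups on histones, methyltransferases and demethylases write and erase histone methylation, Dnmt and Tet enzymes set DNA methylation, and remodellers of the SWI/SNF and CHD families move nucleosomes with energy from ATP. Many of these genes start in CpG islands, stretches rich in unmethylated CG dinucleotides.

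The lists held 44664 peaks for Htt+/+ untreated, 41323 for Htt+/+ ASO, 47957 for HttQ111/+ untreated and 40505 for HttQ111/+ ASO. Reads at each summit were recovered from the fold enrichment and p-value, with 1 ChIP read counting as 3.2289, 2.9742, 3.3027 and 2.6686 control-scaled reads in that order. Peaks resting on 2 to 4 reads made up 79.6 to 87.3% of a list. A peak within 1 kb of the start of a protein-coding transcript was counted as a start-site peak, and any other peak overlapping the gene as a gene-body peak. The number expected for gene length was the mean over all protein-coding genes in the same length class (10 classes of equal size), summed over the 57 genes, whose median length of 45668 bp exceeded the 15427 bp of all genes.

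Of the 57 genes, 16 had a start-site peak in 2 or more of the 4 libraries (28.1%, 95% Wilson interval 18.1 to 40.8%). They were Eed, Ring1, Cbx2, Phc2, Kat2b, Setd2, Ehmt2, Nsd1, Dot1l, Kdm1a, Kdm2b, Kdm5b, Arid1b, Chd5, Chd7 and Rcor1. The share was 15.8% over all protein-coding genes, and 11.4 of the 57 genes were expected from their length, which lies inside the interval. In 11 genes the start-site peaks came from exactly 2 libraries (10.2% of all genes), in 5 (Nsd1, Kdm2b, Arid1b, Chd7 and Rcor1) from 3 (4.80% of all genes), and in 0 from all 4 (0.805% of all genes). All intervals given here are for counting error alone, and they are too narrow where reads or nearby peaks depend on each other.

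At 11 of these 16 genes the peaks of different libraries covered the same bases (19.3% of the 57 genes, against 12.7% of all genes and 9.15 genes expected for length). At the other 5, namely Phc2, Setd2, Ehmt2, Dot1l and Arid1b, the libraries had peaks at separate places. In Phc2, Setd2 and Dot1l these places were many kb apart, near different annotated starts. Gene-body peaks of 2 or more libraries overlapped in 11 genes (19.3%, against 15.5% of all genes and 14.4 expected). For either place the count was 21 genes (36.8%, against 25.6% of all genes and 20.9 expected). There were 26 such shared regions, 22 from 2 libraries, 4 from 3 (Nsd1 and Rcor1 at the start, Dnmt1 and Arid1b in the body) and 0 from all 4. At Dnmt1 the peaks of the 3 libraries overlapped in a chain, and no base was common to all 3.

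The stretches that the libraries had in common are shown for 4 start sites and 3 gene bodies, to show how base composition differed between these places. Sequence is the forward strand of mm9, 5′ to 3′, and capitals mark each CG dinucleotide. The Nsd1 stretch (chr13:55311967-55312167, intron) was common to 3 libraries, as were the Rcor1 stretch (chr12:112278228-112278344, 5 coding bases and intron) and the Arid1b stretch (chr17:5189750-5189956, intron). The Kdm5b stretch (chr1:136457238-136457464) lay in an intron and the Chd7 stretch (chr4:8617172-8617352) lay upstream of the gene. The Dnmt1 stretch (chr9:20714046-20714240) held 104 coding bases, and the Smarca4 stretch (chr9:21491088-21491317) was intronic.
Nsd1 first intron stretch: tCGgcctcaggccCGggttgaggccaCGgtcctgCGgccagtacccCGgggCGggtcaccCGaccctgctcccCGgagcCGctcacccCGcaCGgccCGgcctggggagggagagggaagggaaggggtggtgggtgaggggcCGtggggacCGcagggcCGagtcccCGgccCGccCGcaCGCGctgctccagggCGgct
Rcor1 start stretch: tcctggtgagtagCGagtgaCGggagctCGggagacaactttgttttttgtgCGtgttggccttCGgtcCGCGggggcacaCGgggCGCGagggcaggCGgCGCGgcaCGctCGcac
Kdm5b start stretch: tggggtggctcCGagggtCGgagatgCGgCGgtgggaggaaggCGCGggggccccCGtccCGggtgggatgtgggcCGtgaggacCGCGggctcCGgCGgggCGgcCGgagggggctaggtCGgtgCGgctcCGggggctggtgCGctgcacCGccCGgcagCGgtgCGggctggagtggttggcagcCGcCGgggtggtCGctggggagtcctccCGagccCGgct
Chd7 upstream stretch: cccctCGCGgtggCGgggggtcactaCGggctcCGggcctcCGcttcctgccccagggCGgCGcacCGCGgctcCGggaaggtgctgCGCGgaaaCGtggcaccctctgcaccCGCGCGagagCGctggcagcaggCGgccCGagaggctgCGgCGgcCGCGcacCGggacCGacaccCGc
Arid1b gene-body stretch: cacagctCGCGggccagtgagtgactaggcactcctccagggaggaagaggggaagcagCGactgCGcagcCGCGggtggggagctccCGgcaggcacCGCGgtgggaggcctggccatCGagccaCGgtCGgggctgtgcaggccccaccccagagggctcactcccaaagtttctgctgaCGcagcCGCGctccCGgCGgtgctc
Dnmt1 gene-body stretch: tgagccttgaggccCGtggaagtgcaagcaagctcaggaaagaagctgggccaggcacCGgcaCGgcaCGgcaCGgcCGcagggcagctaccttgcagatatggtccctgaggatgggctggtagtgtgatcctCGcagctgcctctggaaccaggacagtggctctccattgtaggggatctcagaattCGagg
Smarca4 gene-body stretch: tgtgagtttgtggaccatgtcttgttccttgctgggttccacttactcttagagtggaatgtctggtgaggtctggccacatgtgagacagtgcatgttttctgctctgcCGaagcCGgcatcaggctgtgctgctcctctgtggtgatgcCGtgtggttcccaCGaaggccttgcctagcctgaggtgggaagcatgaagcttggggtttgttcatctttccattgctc

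The 13 shared regions at start sites, of which that of Sin3a reached the start window in 1 library only, had a median GC content of 76.0% (63.7 to 79.3%) and a median of 27 CG dinucleotides. The 13 in gene bodies had a median GC content of 59.2% (49.2 to 71.5%) and a median of 4 CG dinucleotides. Among the printed stretches the count ran from 28 in Kdm5b and 27 in Chd7 to 4 in Smarca4, with 17 in the Arid1b gene body, a CG-rich place more than 1 kb from that gene's annotated starts.

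The genes also had CG-rich starts as a whole, which the choice by function did not use. Within 1 kb of the 5′ end, the median GC content was 57.9% for the 57 genes and 51.1% for all protein-coding genes, with 62.5 and 30.5 CG dinucleotides per kb. It was 61.5% for the 16 genes with start-site peaks in 2 or more libraries, 56.2% for the 22 with such a peak in 1 library and 57.4% for the 19 with none. The 107 other chromatin genes, named from the same families and also with earlier results of these data known, had a median of 57.8%. The plot of base composition shows that the ranges of the 3 sets overlapped widely.

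**Figure D1:**
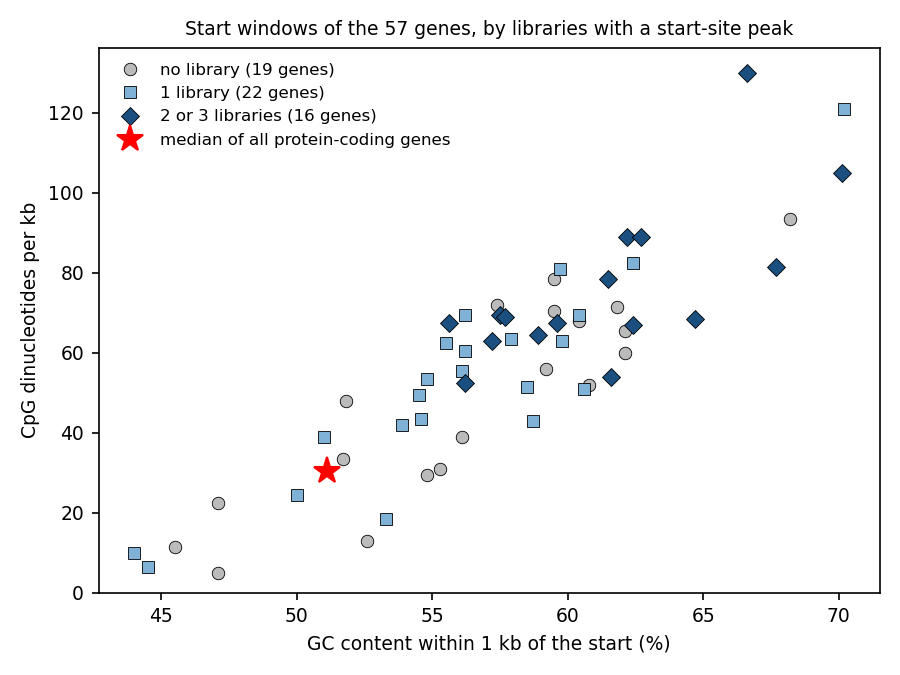
Each point is 1 of the 57 genes, placed by GC content (x axis, %) and CG dinucleotides per kb (y axis) within 1 kb of its 5′ end, and marked by the number of libraries with a start-site peak. The star is the median of all protein-coding genes (51.1% and 30.5 per kb), and genes with peaks in 2 or 3 libraries all lie above it on both axes.

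Start-site peaks were found in 12 genes in Htt+/+ untreated (21.1%, interval 12.5 to 33.3%), 16 in Htt+/+ ASO (28.1%, 18.1 to 40.8%), 23 in HttQ111/+ untreated (40.4%, 28.6 to 53.3%) and 8 in HttQ111/+ ASO (14.0%, 7.29 to 25.3%). Over all protein-coding genes the shares were 15.6, 18.8, 21.4 and 5.90% in the same order. The same libraries were thus high and low for the 57 genes and for all genes. The number of genes expected for length was 10.5, 13.4, 14.9 and 3.58.

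In peaks, the start sites held 15, 18, 26 and 8, against 11.4, 14.5, 16.5 and 3.76 expected for length, again in the order Htt+/+ untreated, Htt+/+ ASO, HttQ111/+ untreated and HttQ111/+ ASO. Observed numbers were above expected in all 4 libraries, and the Poisson interval of HttQ111/+ untreated (1.03 to 2.31 times expected) was the only one above 1. Over the 4 libraries 67 start-site peaks stood against 46.1 expected, a ratio of 1.45 (1.13 to 1.85), and the other chromatin genes had a ratio of 1.09. The ratio was 1.12 when the expectation came from genes of the same GC class (10 classes) around the start. It was 1.05 when the expectation came from the number of bases within 1 kb of annotated starts. Of such starts the 57 genes had a mean of 3.86 per gene against 2.06. Against genes with the same number of start sites the ratio was 1.36, and with the 5′ end of the gene alone it was 1.22.

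Gene-body peaks were found in 35, 21, 35 and 31 of the 57 genes in that order (61.4, 36.8, 61.4 and 54.4%), against 34.7, 31.5, 36.4 and 31.4% of all genes and 31.9, 29.7, 32.8 and 30.5 genes expected for length. Htt+/+ ASO was the low library here. Gene bodies held 78, 39, 102 and 49 peaks, against 78.7, 67.4, 86.2 and 71.0 expected. Both untreated libraries were near or above the expected number and both ASO libraries were below it. Over the 4 libraries the ratio was 0.884 (268 peaks against 303, interval 0.781 to 0.996), and 0.707 for the other chromatin genes. With expectation from gene length in bases instead of length classes it was 1.0, and with only peaks of at least 5 reads it was 1.28.

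**Figure D2:**
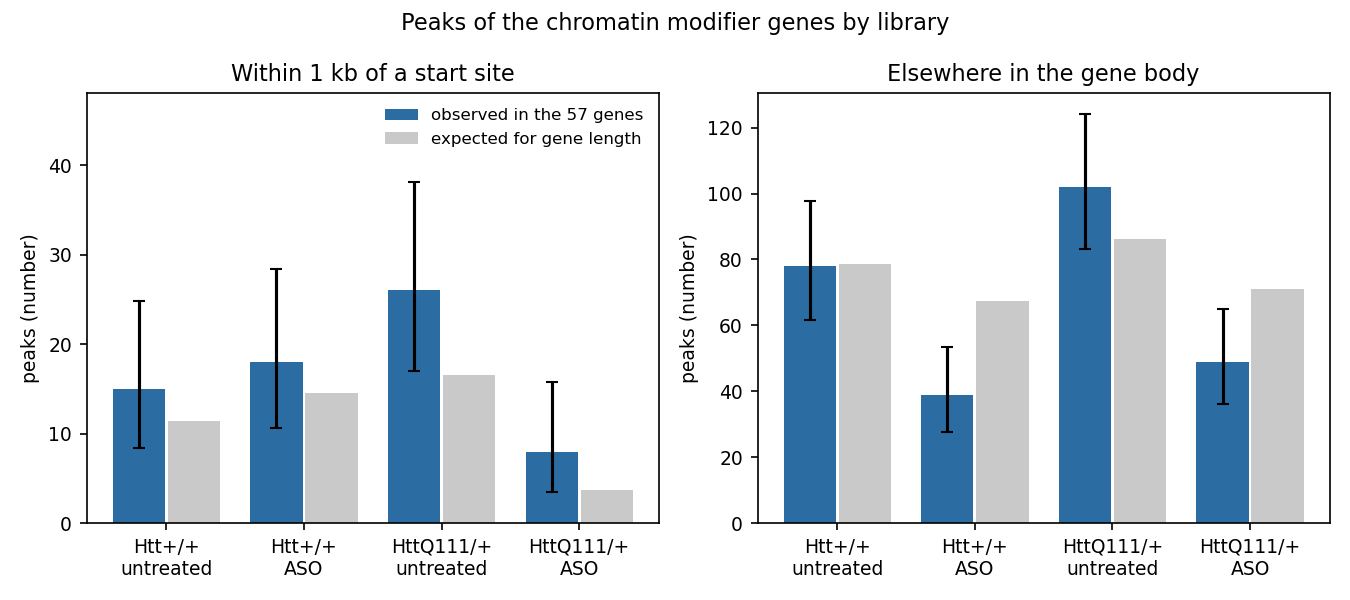
Bars give the number of peaks (y axis) in the 57 genes in each library (blue) and the number expected for gene length (grey), within 1 kb of a start site (left) and elsewhere in the gene body (right), and error bars are 95% Poisson intervals of the observed number. Start-site peaks exceed the expected number in each library, from 8 against 3.76 to 26 against 16.5, while gene-body peaks fall below it in both ASO libraries (39 against 67.4 and 49 against 71.0).

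Gene-body peaks occurred in 2 or more libraries in 39 genes (68.4%, interval 55.5 to 79.0%, against 39.3% of all genes and 37.5 expected for length). With both places counted 44 genes had a peak in 2 or more libraries (77.2%, 64.8 to 86.2%, against 50.1% and 42.3 expected). Recurrence anywhere in the gene was thus about as frequent as gene length gave. Peaks in all 4 libraries were found in 17 genes (29.8%, against 15.4% of all genes), namely Phc2, Hdac9, Kat2b, Ehmt1, Nsd1, Carm1, Kdm2b, Dnmt1, Dnmt3a, Tet1, Smarca2, Smarca4, Arid1a, Arid1b, Chd5, Chd7 and Rcor1. Cbx8 and Hdac11 had no peak in any library (2 genes, 3.51%, against 28.5% of all genes). The number expected for length was not computed for either count, and the 57 genes are long (median 45668 bp, against 15427 bp).

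**Figure D3:**
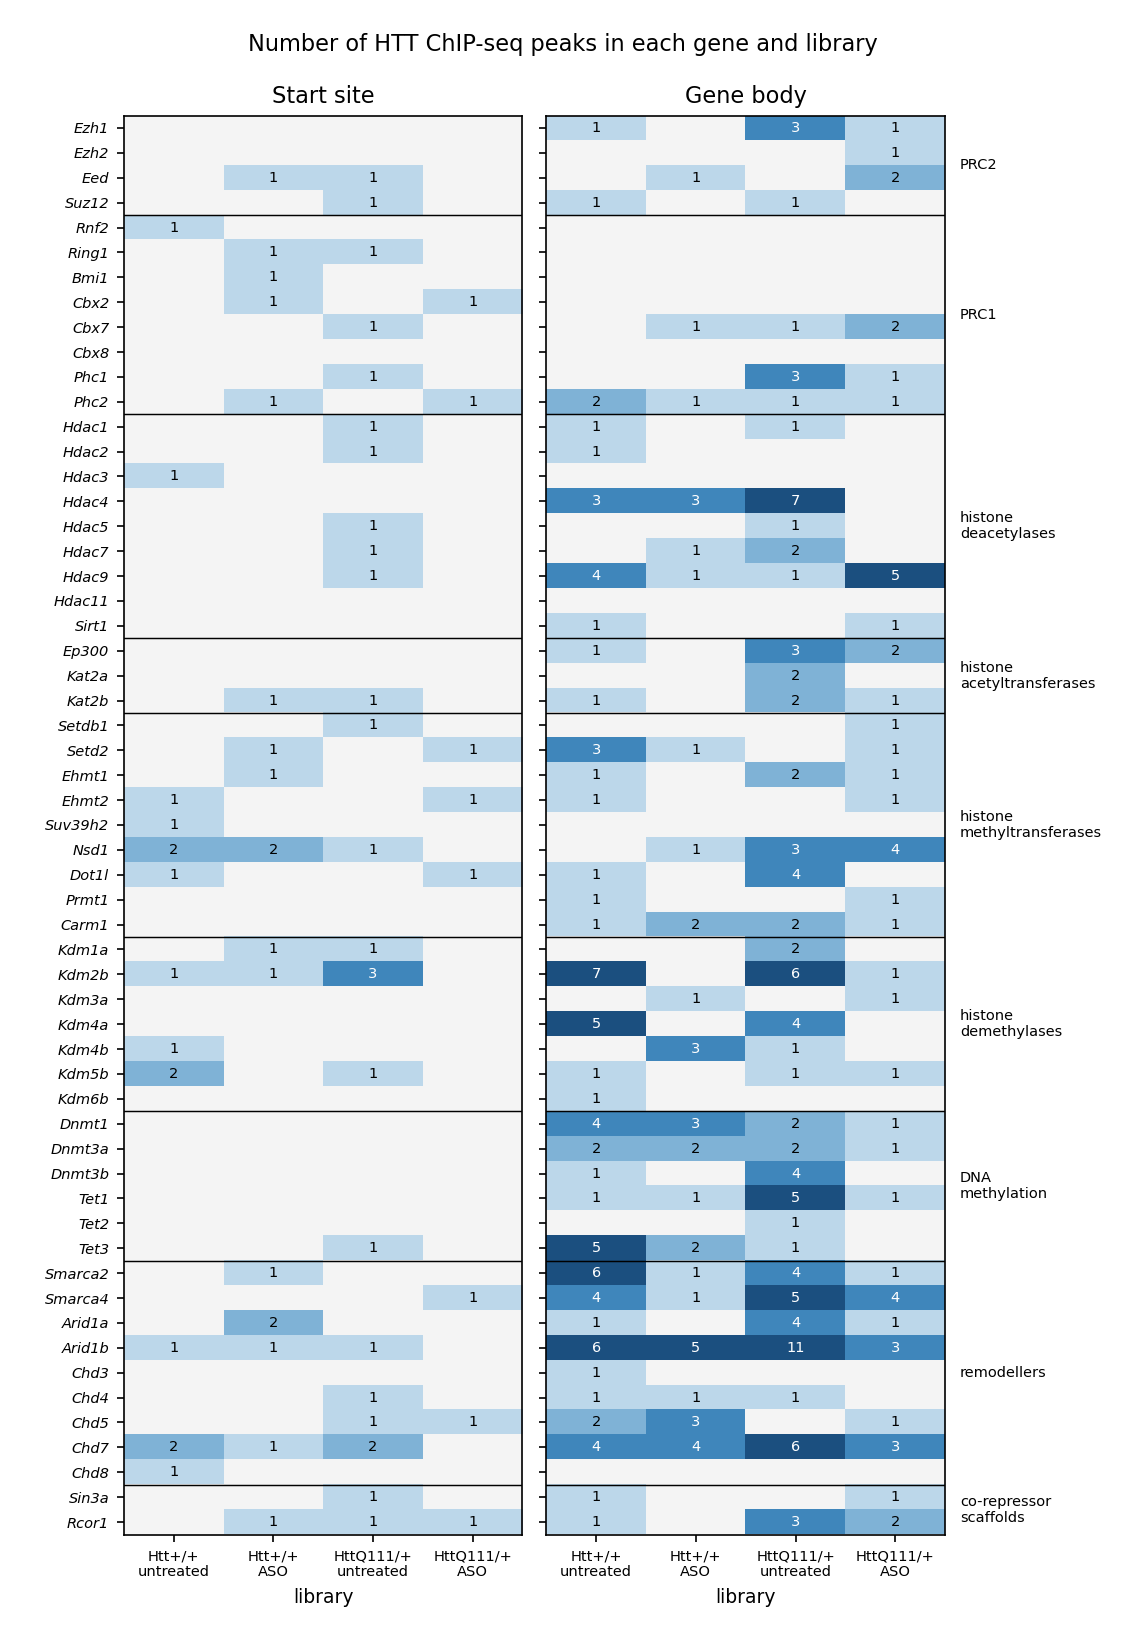
Each row is a gene, grouped by function, each column a library, and the number and shade of a cell give the peaks within 1 kb of a start site (left) or elsewhere in the gene body (right), an empty cell being 0. No row is filled in all 4 start-site columns, the DNA methylation genes have 1 start-site peak among them (Tet3), and Arid1b, Chd7, Kdm2b and Smarca4 hold the most gene-body peaks.

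Among the PRC2 genes, Eed, which binds methylated histone H3 and is needed for the enzyme's activity, was the member with recurrent start-site peaks. Its peak had a fold enrichment over control of 3.12 from 7 reads in Htt+/+ ASO and of 6.61 from 8 reads in HttQ111/+ untreated, with summits 306 and 376 bp downstream of the start in the first exon. The bases in common were chr7:97129036-97129218, with a GC content of 77.6%. Both libraries without a peak, Htt+/+ untreated and HttQ111/+ ASO, belong to different genotypes and treatments. Suz12, a core subunit, had 1 start-site peak, in HttQ111/+ untreated. The catalytic genes Ezh1 and Ezh2 had none. Ezh2 had 1 peak in all, a gene-body peak in HttQ111/+ ASO, against 6.34 expected for length, among the 5 largest shortfalls of the 57 genes. Over the group, 3 start-site peaks stood against 3.13 expected and 11 gene-body peaks against 14.5. For this and the following groups the expected numbers are by length class alone. For all 57 genes the start-site ratio of 1.45 was 1.12 by GC class, 1.36 by number of start sites and 1.05 by bases near starts. The gene-body ratio of 0.884 was 1.0 by bases. Such ratios were not computed by group.

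PRC1 genes had 10 start-site peaks against 5.28 expected and 13 gene-body peaks against 17.4. Start-site peaks lay in 7 of the 8 genes, and in 2 libraries each for Ring1, Cbx2 and Phc2. Ring1, a ubiquitin ligase, had peaks of 2.45-fold from 12 reads in Htt+/+ ASO and of 2.49-fold from 8 reads in HttQ111/+ untreated, sharing chr17:34161566-34161837 across the start itself. Cbx2, a chromodomain reader of methylated histone H3, had peaks of 3.3-fold from 5 reads in Htt+/+ ASO and of 2.46-fold from 7 reads in HttQ111/+ ASO, so its peaks were both from treated mice. The Phc2 peaks, in Htt+/+ ASO (5.45-fold, 7 reads) and HttQ111/+ ASO (3.60-fold, 4 reads), lay at different annotated starts. Phc2, which polymerises through its SAM domain, also had gene-body peaks in all 4 libraries, with 2, 1, 1 and 1. Ring1, Rnf2, Bmi1 and Cbx2 had no gene-body peak in any library, and Cbx8 had no peak of either kind, with 1.04 expected.

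Histone deacetylases had 6 start-site peaks against 7.26 expected, in 6 of the 9 genes, and 0 genes with such a peak in 2 libraries. Over all genes 60.5% had no start-site peak and 15.8% had one in 2 or more libraries. In HttQ111/+ untreated the peaks lay at Hdac1, Hdac2, Hdac5, Hdac7 and Hdac9, in Htt+/+ untreated at Hdac3, and both ASO libraries had 0. The Hdac7 and Hdac9 peaks rested on 3 reads each. Gene bodies held 33 peaks against 49.4 expected. Hdac9, a class II deacetylase and at 481304 bp the longest of the 57 genes, had 12 peaks against 15.7 expected for its length class and 38.8 expected for its length in bases. Its gene-body peaks numbered 4, 1, 1 and 5 in the order used above. Hdac11 had no peak, with 2.26 expected.

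Of the acetyltransferases, Kat2b (PCAF) had start-site peaks of 5.99-fold from 8 reads in Htt+/+ ASO and of 5.58-fold from 6 reads in HttQ111/+ untreated. The 210 bp in common, chr17:53706641-53706850, had a GC content of 78.6% and covered the start of the coding sequence. Its 4 gene-body peaks came from the other libraries as well (1, 0, 2 and 1), and its 6 peaks stood against 15.7 expected by length class and 8.54 by bases. Ep300 and Kat2a had 0 start-site peaks. The group had 2 start-site peaks against 2.5 expected and 12 gene-body peaks against 20.8.

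Histone methyltransferases had 14 start-site peaks against 7.14 expected and 33 gene-body peaks against 48.2. For both places together, Nsd1 and Ehmt1 had 15.7 peaks each expected by length class, but 8.76 and 10.4 by bases. Nsd1, which methylates lysine 36 of histone H3, had the most start-site peaks in the group, with 2, 2, 1 and 0. At chr13:55311967-55312167 its peaks were 3.32-fold from 11 reads, 3.31-fold from 9 reads and 2.84-fold from 10 reads, so that the 3 libraries had nearly equal enrichment and HttQ111/+ ASO had no peak. In the gene body the order was different, with 0, 1, 3 and 4 peaks. Setd2, the trimethylase of the same lysine, had a start-site peak in Htt+/+ ASO (2.73-fold, 7 reads) and HttQ111/+ ASO (4.41-fold, 3 reads). Ehmt2, which methylates lysine 9 of histone H3, had a start-site peak in Htt+/+ untreated (4.07-fold, 6 reads) and HttQ111/+ ASO (4.09-fold, 6 reads). Dot1l, the lysine 79 methyltransferase, likewise had a start-site peak in Htt+/+ untreated (2.66-fold, 6 reads) and HttQ111/+ ASO (5.16-fold, 6 reads). In these 3 genes the peaks lay at separate places, which in Setd2 and Dot1l were many kb apart, near different annotated starts.

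Ehmt1, the partner of Ehmt2, had 5 peaks against 15.7 expected by length class and 10.4 by bases, the largest shortfall among the 57 genes by the first measure. It still had a peak in each library, at the start in Htt+/+ ASO and in the body in the other three, and its intronic peak of 7.97-fold from 5 reads had the highest fold enrichment of the 57 genes in Htt+/+ untreated, level with an intronic Phc2 peak of the same fold and reads. Carm1, an arginine methyltransferase, had gene-body peaks in all 4 libraries (1, 2, 2 and 1) and 0 at its starts. A region near its 3′ end, chr9:21392932-21393215, was common to Htt+/+ ASO (3.97-fold, 5 reads) and HttQ111/+ ASO (3.40-fold, 6 reads).

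Histone demethylases had 11 start-site peaks against 5.74 expected, 0 of them in HttQ111/+ ASO, and 35 gene-body peaks against 36.9. Kdm1a (LSD1) had start-site peaks of 3.64-fold from 7 reads in Htt+/+ ASO and of 4.57-fold from 8 reads in HttQ111/+ untreated, both with a summit 32 bp from the start. Kdm5b, which demethylates lysine 4 of histone H3, had start-site peaks in both untreated libraries, up to 5.11-fold from 14 reads in Htt+/+ untreated. Kdm2b, which brings a variant PRC1 to CpG islands, had 1, 1, 3 and 0 start-site peaks. Around chr5:123402280-123402579 both untreated libraries had a peak, of 4.20-fold from 14 reads in Htt+/+ and of 3.69-fold from 12 reads in HttQ111/+. In its body Kdm2b had 7 and 6 peaks in the untreated libraries and 0 and 1 in the ASO libraries. Many of these peaks rested on 2 to 4 reads, and 1 in HttQ111/+ untreated lay within 1 kb of a start of Orai1. Fewer gene-body peaks with ASO in both genotypes were found in 8.97% of all genes. An intronic Kdm2b peak of 11.3-fold from 6 reads in HttQ111/+ untreated had the highest fold enrichment of all 335 peaks in the 57 genes. Kdm4a had 5 and 4 gene-body peaks in the untreated libraries and 0 in both ASO libraries, and its 9 peaks stood against 4.15 expected. All but 1 of the Kdm4a peaks rested on 2 or 3 reads.

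The genes for DNA methylation enzymes had 1 start-site peak, at Tet3 in HttQ111/+ untreated from 3 reads, against 5.27 expected, the lowest ratio of the 9 groups (0.190). Their gene bodies held 39 peaks against 37.8. The GC content within 1 kb of the 5′ end was 56.1% for Dnmt1, 60.8% for Dnmt3a, 62.1% for Dnmt3b, 45.5% for Tet1, 59.5% for Tet2 and 58.7% for Tet3, against the 57.9% median of the 57 genes. CG dinucleotides per kb were 39.0, 52.0, 65.5, 11.5, 70.5 and 43.0 in that order, below the 62.5 median of the 57 genes in 4 of the 6, and the part of base composition in the low count was not tested. Dnmt1, the maintenance methyltransferase, had 4, 3, 2 and 1 gene-body peaks, 10 against 4.15 expected. Peaks of 3 libraries chained together over chr9:20713968-20714509, and the bases printed above were common to Htt+/+ untreated (7.29-fold, 6 reads) and HttQ111/+ ASO (3.64-fold, 4 reads). Dnmt3a, a de novo methyltransferase, had 2, 2, 2 and 1 gene-body peaks, evenly over the libraries, 7 against 15.7 expected by length class and 8.75 by bases. Tet1, which oxidises 5-methylcytosine, had 1, 1, 5 and 1, so that HttQ111/+ untreated stood above the others. Tet2 had 1 peak, in HttQ111/+ untreated, against 6.34 expected.

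Remodellers had the most peaks, 100 of 335, with 16 at start sites against 8.01 expected and 84 in gene bodies against 67.2. Arid1b, a subunit of the BAF form of SWI/SNF, had 28 peaks against 15.7 expected by length class, the largest excess, but its 353325 bp gave an expectation of 28.5 by bases. Its gene-body peaks numbered 6, 5, 11 and 3 and its start-site peaks 1, 1, 1 and 0. At the start they lay at separate places, of 4.56-fold from 5 reads in Htt+/+ untreated, 4.96-fold from 8 reads in Htt+/+ ASO and 2.74-fold from 8 reads in HttQ111/+ untreated. The intronic stretch printed above had similar enrichment in these 3 libraries, at 5.71-fold from 5 reads, 4.30-fold from 4 and 5.84-fold from 5.

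Smarca4 (BRG1), the ATPase of BAF complexes, had 15 peaks against 6.34 expected by length class and 7.10 by bases, an excess by both measures. Its gene-body peaks numbered 4, 1, 5 and 4, with Htt+/+ ASO the low library. Untreated libraries of both genotypes shared 2 intronic regions of Smarca4, each resting on 3 or 4 reads, and 2 of Smarca2, the related ATPase, whose gene-body peaks numbered 6, 1, 4 and 1. Arid1a, the Arid1b paralogue, had 2 start-site peaks in Htt+/+ ASO and 1, 0, 4 and 1 in the body.

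Chd7, a remodeller of developmental genes mutated in CHARGE syndrome, had 22 peaks against 15.7 expected by length class and 14.3 by bases. Its start-site peaks numbered 2, 1, 2 and 0. The upstream stretch printed above had peaks of 5.57-fold in Htt+/+ untreated and 5.93-fold in HttQ111/+ untreated, from 3 reads each, and a second region 3′ of it was shared by Htt+/+ untreated (4.07-fold, 6 reads) and Htt+/+ ASO (4.36-fold, 7 reads). Its gene-body peaks numbered 4, 4, 6 and 3, and an intronic one of 8.27-fold from 5 reads had the highest fold enrichment of the 57 genes in Htt+/+ ASO. Chd5, a neuronal CHD remodeller, had start-site peaks in HttQ111/+ untreated (5.43-fold, 5 reads) and HttQ111/+ ASO (4.21-fold, 6 reads), so both were from knock-in mice. They shared chr4:151751731-151751992, of which 169 of 262 bases were coding. That stretch lay near an annotated start inside the gene, far from its 5′ end at chr4:151712760. Chd5 also had 2, 3, 0 and 1 gene-body peaks.

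Of the scaffolds, Rcor1 (CoREST), which links Kdm1a to Hdac1 and Hdac2, had start-site peaks in 3 libraries over chr12:112278228-112278344. They were 3.77-fold from 6 reads in Htt+/+ ASO, 4.57-fold from 8 reads in HttQ111/+ untreated and 3.19-fold from 8 reads in HttQ111/+ ASO, with Htt+/+ untreated lacking a peak. Its gene-body peaks numbered 1, 0, 3 and 2, and an intronic one of 5.58-fold from 4 reads had the highest fold enrichment of the 57 genes in HttQ111/+ ASO. Sin3a had 1 start-site peak and 2 gene-body peaks.

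The start-site peaks of the 57 genes rested on more reads than their gene-body peaks, with medians of 7 and 3. At start sites 85.1% of peaks had at least 5 reads (69.4% over all genes) and in gene bodies 21.6% (16.8% over all genes). Fold enrichment was alike, with medians of 4.02 and 4.64. Of the start-site summits 31 lay in an exon, 28 in an intron and 8 upstream. Among start-site peaks 1, that of Hdac3, was also within 1 kb of the start of another gene, Rell2. Gene-body peaks of Kat2a, Ehmt2 and Kdm2b, 1 each, lay within 1 kb of a start of Dhx58, Slc44a4 and Orai1, respectively.

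The ASO comparison asks whether peaks depend on HTT. Gene bodies of the 57 genes held 78 peaks in Htt+/+ untreated and 39 in Htt+/+ ASO, a ratio of 0.50 (interval 0.341 to 0.733), and 102 in HttQ111/+ untreated and 49 in HttQ111/+ ASO, a ratio of 0.480 (0.342 to 0.674). Genes of the same lengths had ratios of 0.856 and 0.823, and the other chromatin genes 0.875 and 0.820. Both chromatin gene lists were chosen with earlier results of these data known, which limits this comparison. The exact permutation test over the 4 libraries, exchanging treatment within genotype, gave a one-sided p of 0.25 for a mean log2 ratio of -1.03, the smallest p that the design allows and above any usual threshold, and gave the same p for all protein-coding genes (mean log2 ratio -0.27). With only peaks of at least 5 reads the ratios were 0.867 (13 against 15 peaks) and 0.20 (5 against 25), so in Htt+/+ most of the difference lay in peaks of 2 to 4 reads.

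By gene, 28 of the 57 had fewer gene-body peaks in Htt+/+ ASO than in Htt+/+ untreated and 8 had more, against 21.8 and 16.9% of all genes and 18.9 and 14.7 genes expected for length. In HttQ111/+ 30 had fewer and 13 more, against 23.7 and 16.8% of all genes and 19.8 and 15.5 expected. Fewer in both genotypes were found in 17 genes (8.97% of all genes, 8.47 expected for length). These were Ezh1, Suz12, Hdac1, Ep300, Kat2b, Ehmt1, Dot1l, Kdm2b, Kdm4a, Dnmt1, Dnmt3b, Tet3, Smarca2, Smarca4, Arid1a, Arid1b and Rcor1, which span 8 of the 9 groups. More in both were found in Eed, Cbx7, Nsd1, Kdm3a and Chd5 (5 genes, 4.99% of all genes, 5.08 expected). Most of these differences were of 1 or 2 peaks in a gene.

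At start sites the ASO ratio was 1.20 in Htt+/+ (18 against 15 peaks, interval 0.613 to 2.35) and 0.308 in HttQ111/+ (8 against 26, 0.142 to 0.667), and genes of the same lengths had 1.28 and 0.228. The directions were opposite and the permutation p was 0.50. Start-site peaks of the 57 genes thus followed those of genes of like length in both genotypes, and HttQ111/+ ASO was the low library for both.

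The genotype comparison asks whether the expanded allele goes with other occupancy. Gene-body peaks were more numerous in HttQ111/+ than in Htt+/+, with ratios of 1.31 untreated (102 against 78, interval 0.975 to 1.75) and 1.26 with ASO (49 against 39, 0.828 to 1.91), where genes of the same lengths had 1.10 and 1.05. Both intervals hold 1, and the two-sided permutation p was 0.50, the smallest possible. With only peaks of at least 5 reads the gene-body ratios were 1.67 untreated (25 against 15) and 0.385 with ASO (5 against 13). The direction with ASO thus depended on peaks of few reads. At start sites the ratios were 1.73 (26 against 15, 0.928 to 3.24) and 0.444 (8 against 18, 0.198 to 1.0), again in opposite directions. Over both places they were 1.38 (128 against 93) and 1.0 (57 against 57), with a permutation p of 1.0.

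**Figure D4:**
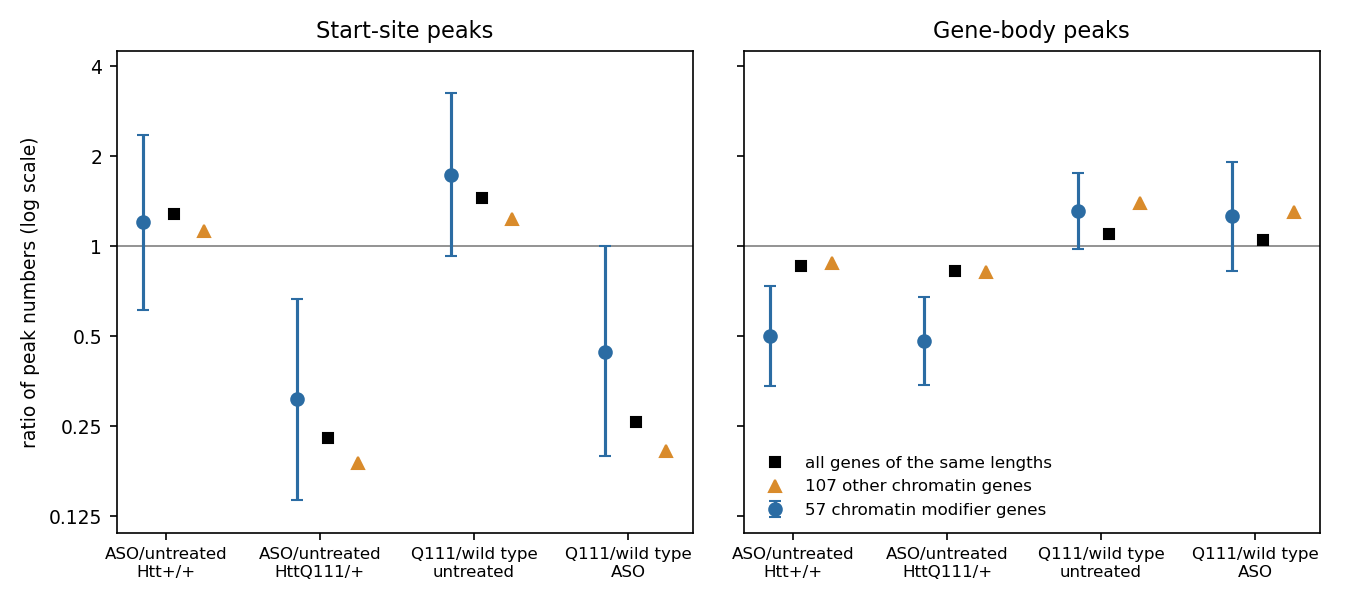
Ratios of peak numbers (y axis, log scale) between libraries for start-site (left) and gene-body peaks (right), for the 57 genes (blue circles with 95% intervals for counting error), all genes of the same lengths (black squares) and the 107 other chromatin genes (orange triangles). The ASO ratios of gene-body peaks, 0.50 and 0.480, lie below those of genes of the same lengths (0.856 and 0.823), while the start-site ratios lie near them.

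The number of shared regions differed between pairs of libraries, and such counts were not computed over all genes. The untreated libraries had 5 start-site and 6 gene-body regions of the 57 genes in common. Htt+/+ ASO and HttQ111/+ untreated had 6 and 2, and both ASO libraries 2 and 3. Within a genotype, the untreated and ASO libraries shared 2 and 4 in Htt+/+ and 2 and 1 in HttQ111/+. Htt+/+ untreated and HttQ111/+ ASO had 0 start-site regions in common and 1 in a gene body. The libraries also differed in how many peaks they had at these genes, from 57 in each ASO library to 128 in HttQ111/+ untreated, and the part of this in the sharing was not tested.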

How the data were processed

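HTT ChIP-seq peak lists of 4 cortex libraries were used, 1 per group, with groups taken from the sample titles. Per the labels, the authors demultiplexed reads with bcl2fastq 2.17, aligned them to mm9 with HISAT2, down-sampled the libraries, merged the inputs and called peaks with MACS2 scaled to the control. The study's methods name mm10 instead. No peak passed the end of an mm9 chromosome (0 peaks), and the lists were read as mm9. The recovered scaling factors differed between libraries, so that 1 read did not weigh the same in each. The deposited values are the authors' fold enrichment at the summit (a ratio to control), −log10 p-value and −log10 q-value, the summit's offset in bases, and a score equal to 10 times the −log10 p-value, cut to whole numbers. The lowest −log10 p-value was 3.00. No depth is given in the lists. The members and the lists of other chromatin genes were chosen with earlier results of these data known.

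Peaks on chromosomes 1 to 19, X and Y were assigned to protein-coding genes of GENCODE vM1 with Python 3.11.15, numpy 2.4.6, pandas 2.3.3 and scipy 1.17.1 (figures with matplotlib 3.10.9). Where a symbol was annotated more than once (1 of the 57), the longer gene was used. Reads at a summit were the whole number that gave the deposited fold enrichment and p-value under MACS2's Poisson model, within 0.01 of the −log10 p-value, which at least 99.99% of peaks allowed. Expected numbers came from all genes of the same length class (10 classes). Shares have 95% Wilson intervals, peak numbers exact Poisson intervals and ratios intervals from the same counts. Libraries were compared with exact permutation tests over libraries. Peak assignment and read recovery were tested on simulated data.

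Genes were named by a rule: every gene with a start-site peak in 2 or more libraries, every gene with peaks in all 4, the 5 most above and 5 most below the number expected for length, the peak with the highest fold enrichment of each library, and genes with no peak. Other genes named in a group's account were chosen after their values were seen. Alternatives were q below 0.01, at least 5 reads, the 5′ end of the gene alone, windows of 500 bases or from 3 kb upstream to 1 kb downstream, the summit in the window, overlap between libraries, expectation per base, covered bases, division by the library's peaks and leaving out each library. Expectations from the number of start sites and from GC content, gene-body peaks alone, and leaving out the 3 genes with most peaks were added after seeing the data. Input libraries were not analysed here, nor was the ENCODE list of artefact regions.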

Additional observations from a re-analysis of the deposited data

Results flagged for a closer look

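Start-site peaks of the 57 genes went in opposite directions between genotypes with ASO, at 1.20 times the untreated number in Htt+/+ and 0.308 times in HttQ111/+. Equally, HttQ111/+ had 1.73 times the start-site peaks of Htt+/+ when untreated and 0.444 times with ASO. The difference between these ratios was not tested, since each group was 1 library. All protein-coding genes showed the same split (1.21 and 0.262 with ASO, 1.41 and 0.305 by genotype).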

How the results depend on the processing

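The count of 16 genes with start-site peaks in 2 or more libraries ranged from 9 to 13 when a library was left out. It was 9 without Htt+/+ ASO, 10 without HttQ111/+ untreated and 10 without HttQ111/+ ASO, with fewer libraries to recur in. It kept within 1.5 times of 16 under the other 7 settings. Of these the lowest count was 11, with the 5′ end of the gene alone and where peaks had to overlap. The highest was 22, with windows from 3 kb upstream to 1 kb downstream. The 44 genes with peaks in 2 or more libraries at either place came to 21 with at least 5 reads and to 21 where peaks of different libraries had to overlap. The start-site ratio to expected of 1.45 was 1.05 per base and 1.12 for genes of the same GC content. It was 1.36 for genes with the same number of start sites and 1.22 with the 5′ end of the gene alone. The gene-body ratio of 0.884 turned to 1.28 with at least 5 reads and to 1.0 per base, and ranged from 0.765 (without HttQ111/+ untreated) to 0.971 when a library was left out. For both places together the ASO ratio in Htt+/+, 0.613, turned to 1.11 with at least 5 reads and to 1.20 at start sites, and was 0.867 for gene-body peaks of at least 5 reads. The ratio in HttQ111/+, 0.445, was 0.244 with at least 5 reads, 0.308 at start sites, 0.20 for gene-body peaks of at least 5 reads and 0.621 for gene-body bases covered. The genotype ratio with ASO, 1.0, was 0.355, 0.444, 0.385 and 1.52 under those settings, and the one without treatment kept its direction under all 10. The causes were not tested. With 2 to 4 reads under most peaks and 1 library a group, a gene without a peak cannot be told from a gene missed at this depth.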
